A study of Mus musculus with 4 samples.

Results

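The 6 genes described here, Ccl2, Ccl6, Ccl9, Ccl24, Cxcl2 and Cxcl16, encode chemokines that are best known as products of macrophages and other myeloid cells. They were chosen by name, out of 18804 genes in the table, because their transcripts were higher in Cd200r knockout than in WT libraries and low in WT. The knockout against WT values of these genes are therefore a description and carry no test. RNA-seq profiled ILC1s, a type of innate lymphoid cell related to natural killer (NK) cells that resides in tissues, from mouse liver. There were 2 libraries labelled Cd200r knockout (replicates 1 and 2) and 2 labelled WT (replicates 1 and 3). All 4 came from mice of 5 to 8 weeks at homeostasis, with no treatment named. CD200R is an inhibitory receptor, and the title of the series relates it to the cytotoxicity of these cells. The labels do not say whether the allele is lacking in all cells, whether animals were pooled, or whether replicates came from separate mice. The spread between replicates may therefore be technical in part.

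Chemokines are small secreted proteins that bind G protein-coupled receptors and direct the movement of leukocytes. They are named by the spacing of their conserved cysteines, adjacent in the CC class and separated by a single residue in the CXC class. In the liver, resident macrophages (Kupffer cells), infiltrating monocytes and sinusoidal endothelial cells are well known sources of such signals, and lymphocytes of the ILC1 and NK lineages are known for a different set, among them Ccl3, Ccl4, Ccl5 and Xcl1.

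Levels are given as FPKM, a unit that corrects fragment numbers for gene length and library depth. From the repeated steps of low values, 38972600 to 41164777 counted reads per library were inferred, so 1 FPKM stood for about 39.0 to 41.2 reads per kilobase. Cd200r1, the targeted gene, measured 110.7 and 103.7 FPKM in the knockout libraries, against 161.5 and 173.3 FPKM in the WT libraries, so its transcript was lower and not absent. Beside the cell type label, 13 markers of ILC1 and NK cells were read, all of which were above the filter. Of these, Eomes averaged 0.836 FPKM in WT and passed the filter through its knockout level. Itga1 was lower in both knockout libraries, at 42.2 and 32.8 FPKM, against 48.3 and 53.0 FPKM in WT, and did not pass the test described below. The list pools genes of both cell types, so it does not tell ILC1s from NK cells. Ncr1, an activating receptor of these cells, averaged 1496 ± 13.8 FPKM in knockout and 1700 ± 66.6 FPKM in WT (SD, n = 2 each). Tbx21, their lineage transcription factor, averaged 255 ± 1.84 and 259 ± 6.82 FPKM in knockout and WT (SD, n = 2 each). A filter on low values kept 9476 genes whose average over the 4 libraries reached 1 FPKM. Of these, 316 passed limma's test at an adjusted p of 0.05 (3.33%), 227 higher (2.4%) and 89 lower (0.939%) in knockout. With no filter limma called 0 of 18155 genes (1898 at an unadjusted p under 0.05), so each call below depends on the filter, and without knockout replicate 1 it called 574. Without the mean-variance trend it called 70, and Ccl1, Ccr8, Cx3cr1, Nfkbia, Tnf, Tnfaip3, Mmp9, Spp1, Cd68, Ms4a4c, Ngp, Camp, H2-Ab1, H2-Aa, Itgax, Fgb and Gzmb, named below as changed, did not pass, nor did Cd200r1. Whether Eomes, also named below as changed, passed without the trend or with a library left out was not examined.

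RefSeq promoter windows (GRCm38.p6, the assembly of the mm10 build named in the labels) were matched for 3 of the 6 genes, and the 250 bases before the gene start are shown because these genes were higher in the same libraries. Capitals mark matches to the 5 motifs searched on both strands. These were the NF-kB consensus, AP-1 (TGANTCA), PU.1 (GAGGAAG), C/EBP (TTGCNNAA) and the TATA box (TATAAA).
Cxcl2, chr5:90903649-90903898, plus strand: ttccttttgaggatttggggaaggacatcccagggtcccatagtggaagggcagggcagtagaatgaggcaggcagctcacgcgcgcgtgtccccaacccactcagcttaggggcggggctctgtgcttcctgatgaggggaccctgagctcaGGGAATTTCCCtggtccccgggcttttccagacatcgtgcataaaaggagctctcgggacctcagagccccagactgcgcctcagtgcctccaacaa
Ccl9, chr11:83578637-83578886, minus strand: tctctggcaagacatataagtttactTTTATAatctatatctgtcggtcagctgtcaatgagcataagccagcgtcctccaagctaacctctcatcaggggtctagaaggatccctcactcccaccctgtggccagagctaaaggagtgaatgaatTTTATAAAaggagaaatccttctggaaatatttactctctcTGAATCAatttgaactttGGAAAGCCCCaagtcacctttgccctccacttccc
Ccl6, chr11:83593088-83593337, minus strand: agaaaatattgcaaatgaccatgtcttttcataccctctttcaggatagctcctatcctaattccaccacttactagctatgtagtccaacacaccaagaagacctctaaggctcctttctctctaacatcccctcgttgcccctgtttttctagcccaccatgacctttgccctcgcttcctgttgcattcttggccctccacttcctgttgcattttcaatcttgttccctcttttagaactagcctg
The Cxcl2 window holds the NF-kB consensus on both strands in overlapping positions, at -97 to -88 and -96 to -87 from the start. The Ccl9 window holds the NF-kB consensus at -35 to -26, a palindromic AP-1 match at -53 to -47 and TATA box letters at 3 positions, of which those at -94 to -89 and -92 to -87 overlap. The Ccl6 window holds none of the 5 motifs. Among all 32851 promoter windows of this length, 7.25% hold the NF-kB consensus, 6.75% AP-1, 10.6% PU.1, 9.56% C/EBP and 12.4% TATA letters. A match is a string of letters and not a measured binding site.

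All 6 genes were detected in each library, and in each of them both knockout libraries lay above both WT libraries. Among all genes tested, 24.3% showed this order, and nothing is read from the count of 6, since the order chose the genes. Of the 6, only Ccl6 had a WT mean of at least 1 FPKM. The other 5 passed the filter on low values through their knockout level. Such a passage fixes much of the direction: of the 216 tested genes with a WT mean under 1 FPKM, 75.5% had both knockout libraries above both WT libraries. Of genes named below as risen, Cx3cr1, Trem2, Ngp, Camp, Fcgr2b and Eomes passed the filter in the same way. On the log2(FPKM + 1) scale the knockout minus WT difference of the 6 genes had a median of 1.44 and ranged from 1.06 to 2.10, against a median of 0.00 for all tested genes. More cells that make a transcript and more RNA of it per cell cannot be told apart in such bulk samples.

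**Figure D1:**
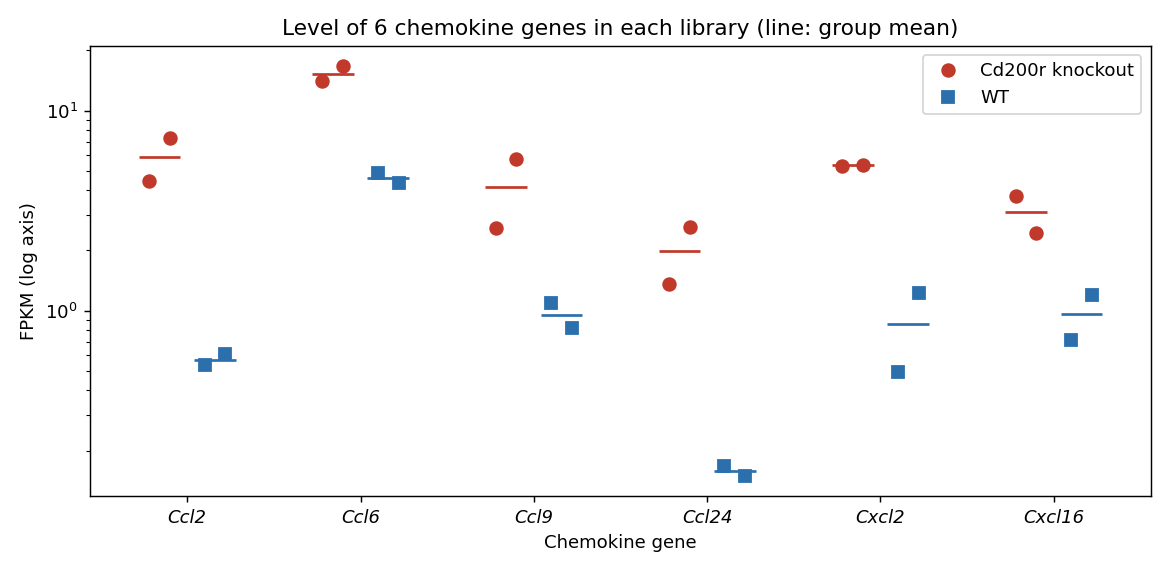
FPKM of the 6 chemokine genes on a log axis, with Cd200r knockout libraries as circles, WT libraries as squares and lines at the group means (n = 2 each). In each gene both knockout points lie above both WT points, and Ccl6 is the highest of the 6 in every library.

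Ccl2 (Entrez 20296, chromosome 11, 82035577 to 82037452) encodes the monocyte attractant CCL2, a ligand of the receptor CCR2. It measured 4.46 and 7.29 FPKM in knockout, against 0.536 and 0.605 FPKM in WT. The WT libraries were close to each other and the knockout libraries well above them. By group means it was 10.3-fold higher in knockout, at 5.87 ± 1.999 against 0.570 ± 0.0487 FPKM (SD, n = 2 each). These levels rest on 148 and 232 reads in knockout and on 17 and 19 reads in WT. Among all genes in the table it ranked at percentiles 65.4 and 71.2 in knockout, against 44.3 and 46.1 in WT.

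Ccl6 and Ccl9 lie side by side on chromosome 11, 9249 bases apart, and encode rodent CC chemokines that signal through the receptor CCR1. Ccl6 (Entrez 20305, 83587886 to 83593087) measured 14.0 and 16.6 FPKM in knockout, against 4.87 and 4.32 FPKM in WT. It was the most abundant of the 6 genes in every library and was 3.33-fold higher in knockout by group means. Ccl9 (Entrez 20308, 83572917 to 83578636) measured 2.60 and 5.72 FPKM in knockout, against 1.09 and 0.819 FPKM in WT. Here the knockout libraries differed from each other more than the WT libraries did, and the 4.36-fold higher knockout mean rests largely on replicate 2. Its log2 difference of 1.33 became 0.88 without knockout replicate 2 and 1.78 without knockout replicate 1. Ccl6 lies wholly within E230016K23Rik, a non-coding gene on the opposite strand. That gene measured 0.164 and 0.353 FPKM in knockout, against 0.0229 and 0.312 FPKM in WT, and without strand its reads and those of Ccl6 cannot be told apart.

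Ccl24 (Entrez 56221, chromosome 5, 135569935 to 135573123) encodes eotaxin-2, an attractant of eosinophils through the receptor CCR3 and a product of alternatively activated macrophages. By group means it was the scarcest of the 6, at 1.36 and 2.62 FPKM in knockout, against 0.167 and 0.150 FPKM in WT. The WT values rest on 9 and 8 reads, with 95% exact Poisson intervals of 4.12 to 17.1 and 3.45 to 15.8 reads, and the knockout values on 77 and 142 reads. The group means differed 12.6-fold, the highest ratio of the 6, and its size depends on those few WT reads. Poisson intervals cover counting error only, since amplified reads are not independent molecules.

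Cxcl2 (Entrez 20310, chromosome 5, 90903899 to 90905938) encodes a neutrophil attractant that acts on the receptor CXCR2 and is transcribed rapidly after inflammatory stimuli. It measured 5.29 and 5.38 FPKM in knockout, against 0.493 and 1.23 FPKM in WT. The knockout libraries were nearly equal, and the spread lay between the WT libraries, with 21 reads in replicate 1 and 52 in replicate 3. The knockout mean was 6.19-fold higher.

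Cxcl16 (Entrez 66102, chromosome 11, 70454389 to 70459984) encodes a chemokine made as a transmembrane protein, which can be shed from the cell surface and is the ligand of CXCR6, a receptor typical of liver ILC1s. It measured 3.74 and 2.46 FPKM in knockout, against 0.715 and 1.20 FPKM in WT, so knockout replicate 1 was the higher one, unlike in the other 5 genes. The knockout mean was 3.23-fold higher, and the log2 difference of 1.06 was the smallest of the 6. The annotated gene shares 552 bases with Zmynd15 on the opposite strand, which measured 0.105 and 0.129 FPKM in knockout, against 0 and 0.0130 FPKM in WT.

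The replicates of one genotype were then compared, a contrast that the choice of the genes did not use. Knockout replicate 2 over replicate 1 gave a ratio of 2.20 for Ccl9, with a 95% interval from read counts of 1.92 to 2.52. The ratio was 1.92 for Ccl24 (1.45 to 2.57), 1.63 for Ccl2 (1.32 to 2.02) and 1.19 for Ccl6 (1.08 to 1.31). The 4 CC genes were thus higher in replicate 2 beyond counting error. Cxcl2 had a ratio of 1.02 (0.843 to 1.22), an interval that overlaps that of Ccl6. Cxcl16 had a ratio of 0.657 (0.530 to 0.812), below the intervals of the other 5 genes. Over all tested genes the median ratio was 0.996. Between the WT libraries, replicate 3 over replicate 1 gave 2.50 for Cxcl2 (1.48 to 4.37) and 1.68 for Cxcl16 (1.13 to 2.53). For Ccl9 it was 0.751 (0.571 to 0.986), and the intervals of Ccl2, Ccl6 and Ccl24 included 1. These are single pairs of libraries, so the intervals compare libraries and not genotypes.

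**Figure D2:**
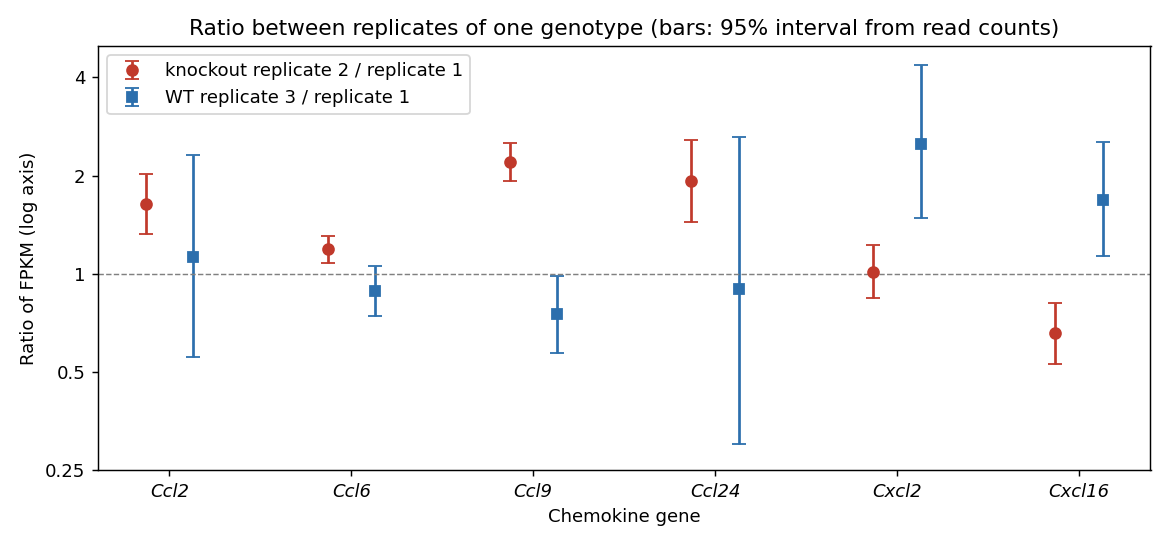
Ratio of FPKM between the 2 libraries of each genotype for the 6 genes, on a log axis, with 95% intervals from exact binomial limits on the read counts. The knockout ratios of Ccl2, Ccl6, Ccl9 and Ccl24 lie above 1, that of Cxcl2 spans 1 and that of Cxcl16 lies below 1.

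The genes whose profile over the 4 libraries lay nearest to each chemokine were sought among 8880 tested protein-coding genes. The measure was the Euclidean distance between log2(FPKM + 1) values centred on each gene's mean. This distance includes the knockout minus WT difference, by which the chemokines were chosen. Their neighbours were thus largely bound to be higher in knockout as well, and nothing is read from that. Nearest to Ccl2 were Fcgr2b, the inhibitory receptor for IgG on myeloid and endothelial cells (distance 0.157), Ctss, a lysosomal protease of antigen-presenting cells (0.200), and Klf2, a transcription factor of recirculating lymphocytes (0.239). Fcgr2b measured 4.07 and 7.15 FPKM in knockout, against 0.375 and 0.657 FPKM in WT. Nearest to Ccl9 were Lmna (0.0998), which encodes nuclear lamins, Renbp (0.121) and Clec7a, the beta-glucan receptor of myeloid cells (0.221). Ccl6 lay nearest to Cd300c2 (0.188), a receptor gene of the CD300 family, Phlda3 (0.191) and Sgk1 (0.219), and Ccl24 to Cdca3 (0.126), C5ar1, a receptor for complement C5a (0.139), and Gramd2b (0.155).

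The CXC genes had other neighbours. Nearest to Cxcl2 were Nr4a1, an immediate-early transcription factor (0.182), Cdca8, a mitotic protein gene (0.208), and Ly6i (0.252). Nr4a1 measured 13.2 and 14.8 FPKM in knockout, against 2.84 and 3.92 FPKM in WT. Nearest to Cxcl16 were Ehd3 (0.0690), Dusp5, an early response phosphatase of ERK (0.0952), and Cdc6, a DNA replication licensing factor (0.103). Dusp5 measured 72.7 and 56.4 FPKM in knockout, against 25.9 and 32.4 FPKM in WT, with the same order of libraries as Cxcl16. Among the 6 themselves the closest pair was Ccl9 and Ccl24 (0.237), and the farthest was Ccl2 and Cxcl16 (1.30). With 4 libraries, many genes share such a profile. The neighbours and their functions are therefore a description and carry no test.

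Other chemokine ligands ranged from abundant in both genotypes to near absent. Of 25 others in the table, 8 passed the filter, of which 1 was higher and 0 were lower in knockout by limma (adjusted p under 0.05), and 5 had an unadjusted p under 0.05. Their median log2 difference was 0.45, and by the same test 2.4% of all tested genes were higher and 0.939% lower. Both knockout libraries lay above both WT libraries in 5 of these 8 (Ccl1, Ccl4, Ccl5, Ccl7 and Cxcl10), beside 24.3% of all tested genes. Below the filter, the interferon-induced Cxcl9 had the same order, with 36 and 82 reads in knockout, against 12 and 6 reads in WT. Ccl1, a ligand of CCR8, was the one that passed, at 22.4 and 23.2 FPKM in knockout, against 14.7 and 8.03 FPKM in WT (log2 difference 0.998, SE 0.22, limma adjusted p = 0.0390). It did not pass without knockout replicate 2 (0.97, limma adjusted p = 0.0616) or WT replicate 3 (0.60, limma adjusted p = 0.134). The chemokines typical of ILC1 and NK cells dominated every library: Ccl5, Ccl4, Xcl1 and Ccl3 made up 99.4% and 99.2% of the summed chemokine FPKM in knockout, against 99.7% and 99.8% in WT. The 6 genes together made up 0.2498% and 0.334% in knockout, against 0.0650% and 0.0719% in WT.

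Ccl5, a T cell and NK cell chemokine, averaged 7762 ± 208 FPKM in knockout and 7160 ± 79.0 FPKM in WT (SD, n = 2 each), and Xcl1, an attractant of cross-presenting dendritic cells, 1882 ± 176 and 2393 ± 279 FPKM. Neither passed limma's test, with adjusted p-values of 0.511 and 0.105. Ccl4 (log2 difference 0.22, SE 0.08) and the interferon-induced Cxcl10 (0.76, SE 0.20) did not pass either, with limma adjusted p-values of 0.195 and 0.0793. Xcl1 and Cxcl10 passed without knockout replicate 1, with -0.44 (limma adjusted p = 0.0151) and 0.95 (limma adjusted p = 0.0196), and Cxcl10 also without WT replicate 1 (1.01, limma adjusted p = 0.0177). Ccl3 and Ccl4 overlap in the annotation, so reads there are uncertain.

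Some genes near the 6, chosen after their values were seen, differed between the knockout libraries, while others, such as Ccl1 (ratio of replicate 2 to replicate 1 of 1.04) and Ccl5 (0.963), did so little. Ccl7, the neighbour of Ccl2 at a distance of 8259 bases and also a monocyte attractant, measured 1.06 and 6.67 FPKM in knockout, against 0.127 and 0.513 FPKM in WT. The groups did not overlap, but it did not pass (log2 difference 1.61, SE 0.48, limma adjusted p = 0.115). It passed without knockout replicate 1 (2.55, limma adjusted p = 1.93e-04) and without WT replicate 3 (1.82, limma adjusted p = 0.0244). Farther along the same cluster, Ccl12 measured 0.136 and 2.55 FPKM in knockout, against 0.379 and 0.0479 FPKM in WT, and Ccl8 0.0951 and 0.991 FPKM in knockout, against 0 and 0.1004 FPKM in WT. Both were high in knockout replicate 2 and below the filter. Cxcl1, which lies 10777 bases from Cxcl2 and shares its receptor, measured 0.0763 and 0.477 FPKM in knockout, against 0.0266 and 0.0269 FPKM in WT. It rests on 3 and 18 reads in knockout and 1 read in each WT library.

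**Figure D3:**
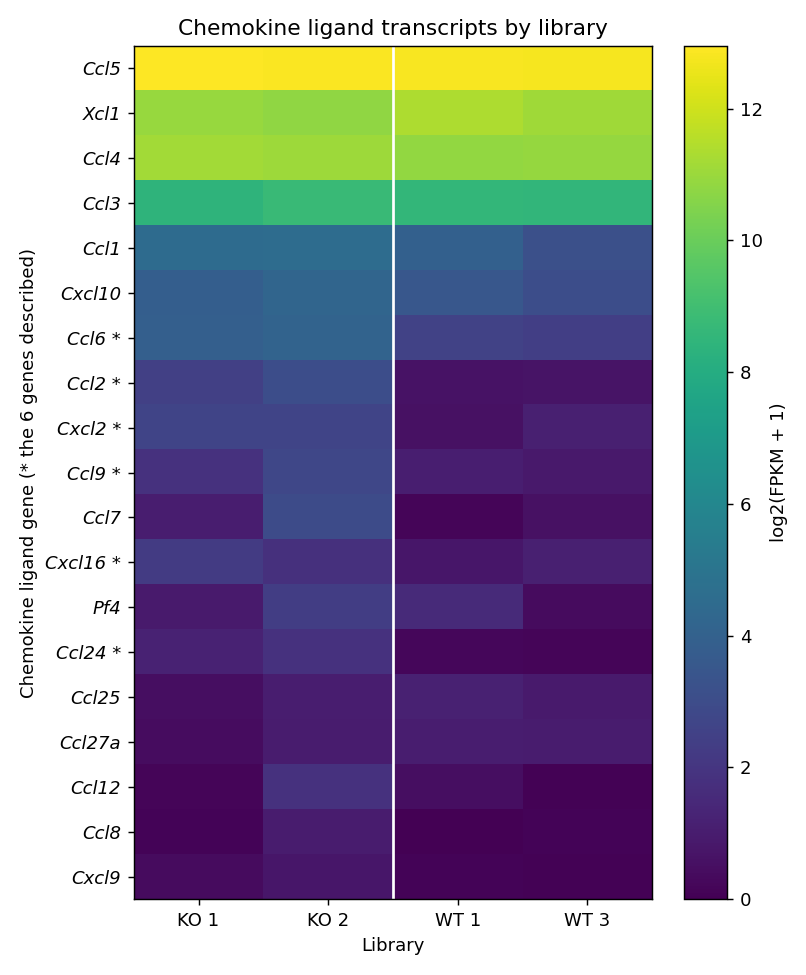
Heat map of log2(FPKM + 1) for the 19 chemokine ligand genes that reach 0.5 FPKM in some library, ordered by mean level, with knockout libraries left of WT libraries and the 6 genes marked by an asterisk. Ccl5, Xcl1, Ccl4 and Ccl3 are bright in all 4 libraries, and Ccl7, Ccl12 and Ccl8 stand out in knockout replicate 2.

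The receptors of the 6 ligands were measured in the same libraries. Cxcr6, the receptor for CXCL16, was abundant, at 948 and 1018 FPKM in knockout, against 1004 and 1067 FPKM in WT (log2 difference -0.07, SE 0.08, limma adjusted p = 0.722). Ccr2, the receptor for CCL2, measured 57.0 and 61.5 FPKM in knockout, against 46.6 and 50.7 FPKM in WT (0.28, SE 0.11, limma adjusted p = 0.244). Neither receptor passed the test. Ccr1, the receptor for CCL6 and CCL9 on myeloid cells, was below the filter, at 0.695 and 1.002 FPKM in knockout, against 0.0628 and 0.0816 FPKM in WT, from 81 and 112 reads against 7 and 9. Ccr3 and Cxcr2, the receptors of eosinophils and neutrophils, were listed at 0 in both knockout libraries, against 0.0437 and 0.0588 FPKM for Ccr3 and 1 read per library for Cxcr2 in WT.

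Of 21 chemokine receptors in the table, 9 were tested, with a median log2 difference of -0.07. Of these 9, 2 rose and 1 fell, beside 2.4% and 0.939% of all tested genes. Cx3cr1, the fractalkine receptor of monocytes, macrophages and some lymphocytes, rose to 3.01 and 6.79 FPKM in knockout, against 0.846 and 0.232 FPKM in WT (1.89, SE 0.33, limma adjusted p = 0.0105). Ccr8, the receptor for CCL1, rose to 25.8 and 18.6 FPKM in knockout, against 9.01 and 6.37 FPKM in WT (1.41, SE 0.20, limma adjusted p = 0.0044).

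Of 10 proteases and inhibitors of chemokine release or trimming in the table, 5 were tested. Of these 5, 0 rose and 1 fell, beside 2.4% and 0.939% of all tested genes. Mmp9, gelatinase B, fell to 34.7 and 27.5 FPKM in knockout, against 64.4 and 69.7 FPKM in WT (-1.09, SE 0.13, limma adjusted p = 0.0016), a call lost in limma without the trend (adjusted p = 0.0554). Below the filter, Mmp14, a membrane-bound metalloprotease, measured 0.767 and 1.21 FPKM in knockout, against 0.114 and 0.00675 FPKM in WT. Mmp12, the macrophage elastase, rested on 25 and 36 reads in knockout, against 2 and 1 reads in WT. In both genes the knockout libraries lay above the WT libraries, with no test. Adam10 and Adam17, the sheddases of CXCL16, had log2 differences of -0.03 (SE 0.15) and -0.17 (SE 0.16) and did not pass, nor did Adam8 (-0.27, SE 0.15).

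Targets and feedback regulators of NF-kB, the factor best known for the induction of Ccl2 and Cxcl2, were read in the same libraries. Of 20 tested, 2 rose, 1 fell and 17 did not pass, with a median log2 difference of 0.07. Among all tested genes 2.4% rose and 0.939% fell. The part of NF-kB in the chemokine values was not tested. Tnfaip3, which encodes the feedback inhibitor A20, rose to 105 and 64.5 FPKM in knockout, against 37.0 and 41.3 FPKM in WT (1.06, SE 0.19, limma adjusted p = 0.0113), a call lost in limma without the trend (adjusted p = 0.135). Nfkbia, which encodes the inhibitor IkB alpha, rose 1.35-fold (0.43, SE 0.09, limma adjusted p = 0.0334), a call lost without knockout replicate 1 (0.37, limma adjusted p = 0.0542) or WT replicate 1 (0.34, limma adjusted p = 0.308). Tnf fell to 15.4 and 18.2 FPKM in knockout, against 28.2 and 34.0 FPKM in WT (-0.85, SE 0.15, limma adjusted p = 0.0105), a call lost without WT replicate 3 (-0.72, limma adjusted p = 0.0569). Traf1 (-0.23, SE 0.11) did not pass.

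Macrophage markers differed in the same direction as the 6 chemokines. Of 18 in the table, 12 were tested, with a median log2 difference of 1.57. Of these 12, 8 rose, 0 fell and 4 did not pass, whereas 2.4% of all tested genes rose and 0.939% fell. C1qb and C1qc, chains of complement C1q, rose to 45.4 ± 10.2 and 31.8 ± 12.2 FPKM in knockout, against 6.13 ± 0.434 and 3.66 ± 0.154 FPKM in WT (SD, n = 2 each, limma adjusted p = 6.18e-05 and 2.10e-04). Lyz2 (lysozyme) and Cd68, a lysosomal membrane protein, rose 3.19-fold and 3.49-fold. The Kupffer cell genes Clec4f (0.98, SE 0.42), Vsig4 (0.85, SE 0.39) and Cd5l (-0.04, SE 0.29) did not pass, and Marco, Timd4, Fcgr1, Mertk and Cd163 were among the 6 below the filter. Clec4f, the most specific of these, measured 3.72 and 12.4 FPKM in knockout, against 2.04 and 4.37 FPKM in WT, and the groups overlapped. Below the filter, Timd4 measured 0.234 and 1.93 FPKM in knockout, against 0 and 0.101 FPKM in WT. Fcgr1 measured 0.901 and 2.19 FPKM in knockout, against 0.187 and 0.426 FPKM in WT. In these genes, Mertk and Cd163 the knockout libraries lay above the WT libraries, with no test, whereas Marco had the reverse order. All 12 tested markers were higher in knockout replicate 2 than in replicate 1, with a median ratio of 1.48, beside 1.63 for Ccl2, 2.20 for Ccl9 and 0.657 for Cxcl16.

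The summed FPKM of the 18 macrophage markers was 657 and 976 in knockout, against 249 and 228 in WT, and that of the 6 chemokines was 31.5 and 40.1 in knockout, against 7.87 and 8.33 in WT. Per 100 FPKM of macrophage markers the 6 chemokines together thus held 4.79 and 4.11 FPKM in knockout, against 3.16 and 3.65 FPKM in WT. With Lyz2, the most abundant marker, left out of the sum, these ratios were 24.1 and 19.5 in knockout, against 22.3 and 23.5 in WT, and the groups overlapped. The single genes differed in this ratio. Ccl6 held 2.13 and 1.70 FPKM per 100 FPKM of the full sum in knockout, against 1.96 and 1.89 FPKM in WT, and for Ccl9 it was 0.396 and 0.586 against 0.438 and 0.359 FPKM, with overlap in both. Ccl2 held 0.679 and 0.747 FPKM in knockout, against 0.216 and 0.265 FPKM in WT, and Ccl24 0.208 and 0.269 FPKM, against 0.0671 and 0.0655 FPKM. For Cxcl2 the ratio was 0.806 and 0.551 FPKM in knockout, against 0.198 and 0.539 FPKM in WT. In these 3 genes both knockout ratios lay above both WT ratios, narrowly so for Cxcl2, whose groups overlapped once Lyz2 was left out of the sum (4.06 and 2.62 FPKM in knockout, against 1.40 and 3.47 FPKM in WT). Of all tested genes 0.591% showed this order for the same ratio, whose denominator was itself higher in knockout. Nothing is read from the count, since the 6 were chosen for higher knockout levels and Ccl2, Ccl24 and Cxcl2 passed the filter only through them. Without Lyz2 the knockout ratios of Ccl6 lay below the WT ratios, at 10.7 and 8.11 FPKM in knockout, against 13.8 and 12.2 FPKM in WT. For Cxcl16 the ratio was 0.569 and 0.252 FPKM in knockout, against 0.288 and 0.527 FPKM in WT, with overlap. The part of macrophage RNA in the chemokine values was not tested.

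**Figure D4:**
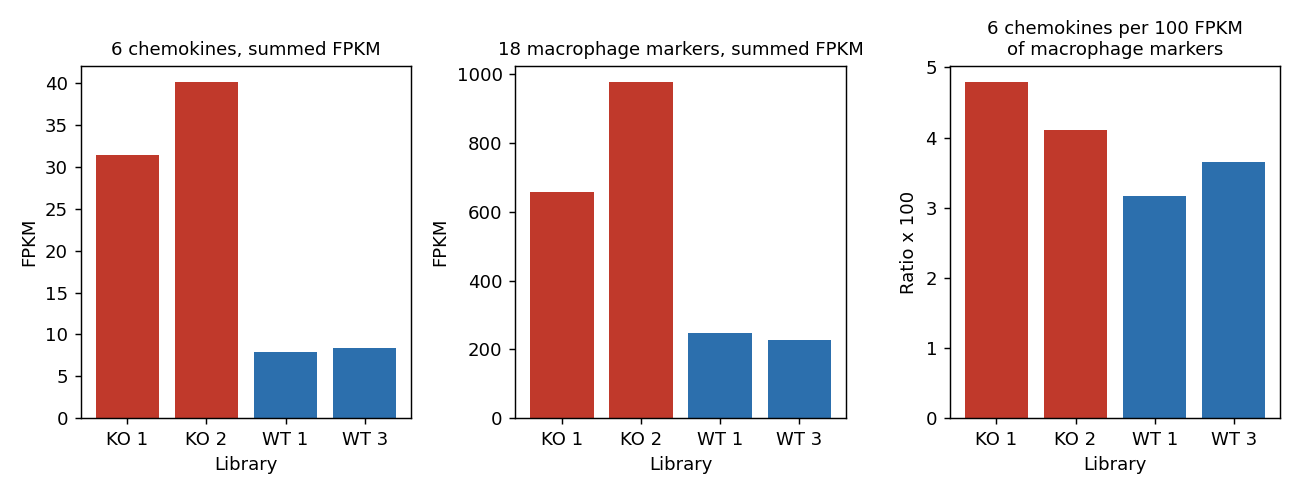
Bars give, for each library (KO, Cd200r knockout), the summed FPKM of the 6 chemokines, the summed FPKM of 18 macrophage markers, and the first per 100 FPKM of the second. The sums are higher in both knockout libraries. The ratio is 4.79 and 4.11 in knockout, against 3.16 and 3.65 in WT, an order that is lost when Lyz2 is left out of the marker sum.

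Genes of macrophage states were examined next. The 9 tested genes of alternative or lipid-associated activation had a median log2 difference of 0.58. Of these 9, 3 rose, 0 fell and 6 did not pass, whereas 2.4% of all tested genes rose and 0.939% fell. Those that rose were Spp1 (osteopontin, 15.2-fold), Apoe (apolipoprotein E, 2.62-fold) and Trem2, a lipid-sensing receptor, at 2.54 and 2.17 FPKM in knockout, against 0.0887 and 0.157 FPKM in WT. Spp1 measured 14.1 and 55.9 FPKM in knockout, against 2.21 and 2.40 FPKM in WT, so its fold rests largely on knockout replicate 2. Gpnmb had 0.58 (SE 0.18) and did not pass. Arg1, the arginase classically induced with Ccl24, had 0.37 (SE 0.21) and did not pass.

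Markers of other cells are given for the same libraries. The counts here and in the next paragraph stand beside 2.4% of all tested genes that rose and 0.939% that fell. Of 7 tested monocyte markers 3 rose, 0 fell and 4 did not pass. Ly6c2, which NK cells also express, was among those that rose. The summed level of the monocyte list was 193 and 307 FPKM in knockout, against 74.6 and 69.8 FPKM in WT. Ms4a4c rose among them but not without knockout replicate 2 (0.80, limma adjusted p = 0.0836). Of 4 tested neutrophil markers 2 rose and 0 fell, with summed levels of 28.3 and 49.3 FPKM in knockout, against 18.9 and 8.76 FPKM in WT. Those that rose were the granule genes Ngp and Camp, though Camp did not pass without knockout replicate 2 (log2 difference 1.06). Ngp measured 3.77 and 10.1 FPKM in knockout, against 0.109 and 0.199 FPKM in WT. For Camp it was 1.18 and 3.38 FPKM, against 0 and 0.0857 FPKM. Both genes passed the filter only through their knockout level, which fixes much of their direction. S100a8 (1.06, SE 0.33) and S100a9 (1.02, SE 0.32) did not pass. Below the filter, Ltf rested on 95 and 144 reads in knockout, against 4 and 0 reads in WT. Retnlg was lower in both knockout libraries than in WT, and Mpo was at 0 in every library.

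Among 6 tested dendritic cell markers 3 rose, the class II genes H2-Ab1, H2-Aa and H2-Eb1, which macrophages also express, and Itgax fell (-0.66, SE 0.11), though not without WT replicate 1 (-0.57, limma adjusted p = 0.0541). Batf3 and Cd209a did not pass. Of the 6 dendritic cell markers below the filter, Flt3 was lower in both knockout libraries, at 0.0273 and 0.0244 FPKM, against 0.0857 and 0.0906 FPKM in WT. In the others, among them Clec9a, Siglech and Zbtb46, the groups overlapped. The summed level of the dendritic cell list was 462 and 525 FPKM in knockout, against 252 and 282 FPKM in WT, most of it from the class II genes and Itgax. Of 2 tested liver endothelial markers Fcgr2b rose and Pecam1 did not pass, and 6 were below the filter. Of those 6, Clec4g, a lectin of sinusoidal endothelium, measured 2.28 and 0.882 FPKM in knockout, against 0.412 and 0.229 FPKM in WT. Egfl7 measured 2.18 and 0.0795 FPKM in knockout, against 0.0160 and 0.0161 FPKM in WT, so its level rests on knockout replicate 1. Stab1, Stab2, Lyve1 and Kdr were at most 0.0811, 0.215, 0.0780 and 0.00620 FPKM in any library. Summed levels were 26.2 and 21.7 FPKM in knockout, against 21.7 and 19.6 FPKM in WT. Of 8 hepatocyte genes 1 rose, Fgb (0.89, SE 0.14), with sums of 490 and 513 FPKM in knockout, against 354 and 464 FPKM in WT. Of 8 tested erythroid and platelet markers 7 fell, with sums of 12485 and 14031 FPKM in knockout, against 24713 and 26811 FPKM in WT. Among 4 mast cell and basophil genes in the table only Kit was tested and it did not pass (0.95, SE 0.25), with sums of 4.30 and 3.55 FPKM in knockout, against 1.92 and 1.66 FPKM in WT. Of the 13 ILC1 and NK markers 1 rose, 1 fell and 11 did not pass, with a median of -0.10 and sums of 16124 and 17397 FPKM in knockout, against 20229 and 20625 FPKM in WT. Eomes, a transcription factor of conventional NK cells, rose to 2.99 and 5.40 FPKM in knockout, against 0.475 and 1.20 FPKM in WT (1.49, SE 0.29, limma adjusted p = 0.0189). Gzmb, a cytotoxic granule protease, fell in the test with all libraries, though not without WT replicate 1 (-0.50, limma adjusted p = 0.0767) or WT replicate 3 (-0.50, limma adjusted p = 0.0687). The part of these cells in the chemokine values was not tested.

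**Figure D5:**
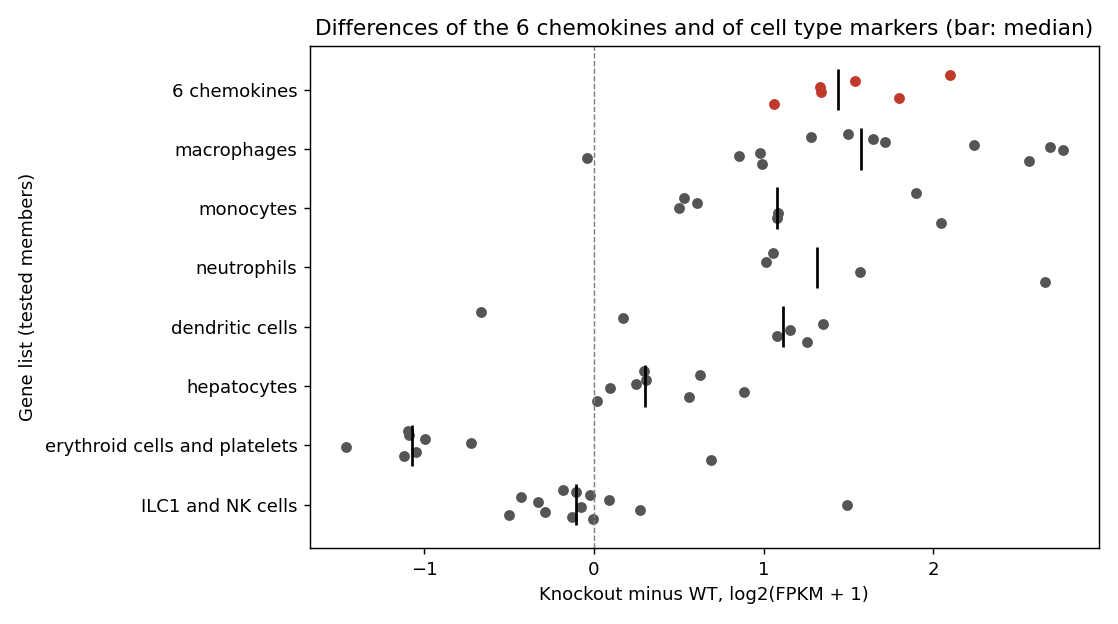
Knockout minus WT differences on the log2(FPKM + 1) scale for the 6 chemokines (red) and the tested markers of 7 cell types, with a bar at each median. The chemokines lie between 1.06 and 2.10, within the range of the macrophage markers (-0.04 to 2.76) and of the neutrophil markers (1.02 to 2.66). Monocyte markers range from 0.50 to 2.05 and dendritic cell markers from -0.66 to 1.35, whereas most ILC1 and NK markers lie near 0.

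The deposited annotation gives all 6 genes the gene ontology term chemokine activity, which 33 genes of the table carry. Neutrophil chemotaxis is annotated to all but Cxcl16, and monocyte and eosinophil chemotaxis to the 4 CC genes. Response to lipopolysaccharide is annotated to Ccl2, Cxcl2 and Cxcl16. By position, 4 of the 6 lie on chromosome 11 and 2 on chromosome 5. Ccl2, Ccl6 and Ccl9 lie among other CC genes and Cxcl2 among other CXC genes, whereas Cxcl16 and Ccl24 lie apart from those clusters on the same chromosomes.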

How the data were processed

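The authors deposited 1 table of FPKM values for 18804 genes in 4 libraries. Per the labels' protocols, RNA was extracted with TRIzol, whole transcripts were amplified by a kit meant for single cells, and a transposase kit that marks no strand made the libraries. The submitters' processing notes name R 3.2.0, DESeq2, HTSeq, HISAT2 and fastp, without roles, and mm10. The step that gave the FPKM is not stated there.

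After addition of 1, FPKM were log2-transformed, and the 9476 genes that averaged 1 FPKM or more were tested. Groups were compared with limma 3.58.1 (R 4.3.3, mean-variance trend, two-sided, no covariate), and p-values were adjusted by Benjamini-Hochberg over all tested genes, with a threshold of 0.05. An exact permutation test of 2 against 2 cannot reach 0.05. Folds are ratios of mean FPKM. Log2 differences are knockout minus WT, with standard errors (SE), and understate the change of low genes.

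Reads were recovered as the smallest whole numbers, within 0.003, in the ratio of a gene's values after scaling by relative depth (the commonest ratio of low values between libraries). Recovery succeeded for 64.8% of tested genes, with whole numbers up to 2000 tried for the lowest library. Absolute depth came from single-exon genes of GENCODE M21. The gene lengths this implies for the 6 chemokines are whole numbers of bases (806 for Ccl2). Only for Cxcl16 would doubled reads also imply a length within the annotated exons, so its reads may be higher. Coordinates and promoters are from RefSeq (GRCm38.p6), matched by Entrez identifier and symbol.

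The genes and all lists were chosen with earlier results of these data known. Named genes are the 6, other ligands past the test or up to 4 with the smallest p, the receptors of the 6, up to 4 per pathway list by p and per marker list by level, the 3 nearest profiles per gene, and Cd200r1. Genes named beyond that rule, such as neighbours of the 6 in the genome or markers below the filter, were chosen after their values were seen. Alternatives were another pseudocount (0.1 or 5), filter, variance model or scaling, and each library left out. A sum of macrophage markers without Lyz2 was added after seeing the data. Some genes that these lists count are not reported here by name.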

Additional observations from a re-analysis of the deposited data

How the results depend on the processing

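With the FPKM filter removed, limma called 0 genes, although 1898 of 18155 had an unadjusted p under 0.05, and so 0 other ligands, 0 receptors and 0 macrophage markers (3, 10 and 11 with an unadjusted p under 0.05). Without the mean-variance trend it called 70 genes, 0 other ligands and 0 receptors (3 and 3 with an unadjusted p under 0.05), but 6 macrophage markers. With 1 library left out, the calls ranged from 256 to 574 over all genes, from 0 to 4 among other ligands, from 2 to 3 among receptors and from 7 to 11 among macrophage markers. The 574 calls and the 4 ligands came without knockout replicate 1. Without knockout replicate 2, 0 ligands were called and 4 had an unadjusted p under 0.05. In such fits the lone library of a group is assumed to vary like the others.

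The median log2 difference of the 6 chemokines was 1.44. It was 2.27 with a pseudocount of 0.1, 0.71 with a pseudocount of 5 and 1.73 on the TPM scale, where the pseudocount is smaller relative to the values, and ranged from 1.36 to 1.72 with 1 library left out. No chemokine's log2 difference changed sign under the 12 alternatives. The choice of the genes fixed most of this. Both knockout libraries lay above both WT libraries in each, so only another scaling could have reversed a sign. Nothing is read from it. With a mean of at least 5 FPKM required only Ccl6 remained in the fit. The other counts stayed within 1.5 times. No paired analysis was possible because the knockout and WT libraries share only replicate number 1. The WT values of the 6 rest on 8 to 275 reads per library and gene. With Lyz2 left out of the macrophage sum, an alternative added after seeing the data, the log2 ratio of knockout to WT means of chemokine FPKM per macrophage marker FPKM changed sign for Ccl9 (-0.17, against 0.30 with Lyz2) and Cxcl16 (-0.41, against 0.013 with Lyz2), and the cause was not tested. It stayed above 0 for Ccl2 (1.11), Ccl24 (1.38) and Cxcl2 (0.46) and was -0.46 for Ccl6.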
